A study of Mus musculus with 8 samples.

Results

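The genes described here make, sense and export cholesterol. They were taken as 34 named members in 3 groups by role: 19 of synthesis, 6 of SREBP control, and 9 of efflux, sterol handling and LXR. Of these, 30 were measured, 17, 6 and 7 per group, out of 22180 genes on the array. A gene counted as measured when a probe set named it and no other gene, and the probe set with the highest mean over the 8 arrays was used. Acat2, Nr1h2 and Soat1 were not analysed here, and neither was Idi1, whose probe set also names the pseudogene Gm13502.

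The data are 8 microarrays of conventional dendritic cells (cDC) that carry CD103 and CD11b, a subset that brings antigen from the gut wall to lymph nodes. Flow sorting took them from the mesenteric nodes of male C57BL6 mice, 8 weeks old and fed chow. On 4 arrays the mice carried human BCL2, an inhibitor of apoptosis, under the CD11c promoter (transgenic, hBcl-2), and on 4 they were control littermates (wild type). That promoter is active in CD11c-expressing cells in general, so the transgene is not limited to the sorted subset. Each array is a pool of 2 to 3 samples, and n is 4 pools in either group. Which animals made up a pool is not stated, so p-values measure the spread between these pools.

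Cholesterol is built from acetyl-CoA through mevalonate, isoprenoids and squalene to lanosterol, which further enzymes turn into cholesterol. When sterol in the endoplasmic reticulum is low, SCAP carries the SREBP transcription factors to the Golgi, where they are cut and freed to switch on the enzymes of synthesis. INSIG proteins hold SCAP back when sterol is plentiful. Oxysterols, which form when cholesterol is abundant, activate the LXR receptors, which switch on efflux pumps such as ABCA1. In dendritic cells sterol supply bears on membrane composition, and oxysterols also act as guidance signals.

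The promoters of 4 members are shown because they carry letters linked to SREBP control, or lack them in the exact form searched. Each run is the 250 bases before a RefSeq transcription start (GRCm38.p6), written along the gene's strand, 5′ to 3′. Capitals mark the sterol regulatory element TCACNCCAC, which SREBP binds, and the CCAAT box of its partner NF-Y, which reads ATTGG on the other strand. The first 3 genes belong to synthesis and the last to efflux.
Hmgcs1, chr13:119690101-119690350, plus strand: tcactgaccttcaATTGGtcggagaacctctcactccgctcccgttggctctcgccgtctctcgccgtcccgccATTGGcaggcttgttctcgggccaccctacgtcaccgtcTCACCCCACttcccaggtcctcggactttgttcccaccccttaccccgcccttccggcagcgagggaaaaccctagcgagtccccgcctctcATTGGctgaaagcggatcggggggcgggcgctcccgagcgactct
Hsd17b7, chr1:169969206-169969455, minus strand: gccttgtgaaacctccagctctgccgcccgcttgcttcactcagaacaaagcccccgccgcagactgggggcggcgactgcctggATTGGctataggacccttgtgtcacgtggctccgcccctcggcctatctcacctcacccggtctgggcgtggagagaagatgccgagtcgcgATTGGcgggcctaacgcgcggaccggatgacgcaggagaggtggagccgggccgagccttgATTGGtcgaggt
Idi2, chr13:8952613-8952862, plus strand: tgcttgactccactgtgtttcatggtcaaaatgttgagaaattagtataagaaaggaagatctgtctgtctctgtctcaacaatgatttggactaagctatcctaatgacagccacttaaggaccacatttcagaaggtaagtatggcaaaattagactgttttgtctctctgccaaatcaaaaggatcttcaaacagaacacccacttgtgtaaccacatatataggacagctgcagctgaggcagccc
Abca1, chr4:53159896-53160145, minus strand: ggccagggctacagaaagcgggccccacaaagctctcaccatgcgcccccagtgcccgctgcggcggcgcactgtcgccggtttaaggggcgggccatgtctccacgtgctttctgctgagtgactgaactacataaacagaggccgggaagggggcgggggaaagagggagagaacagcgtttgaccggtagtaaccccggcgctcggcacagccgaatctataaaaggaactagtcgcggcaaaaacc
The Hmgcs1 run holds a sterol regulatory element from 137 to 129 bases before the start, together with 3 CCAAT boxes. The Hsd17b7 run holds 3 CCAAT boxes, and the runs of Idi2 and Abca1 hold neither motif in that form. LXR sites are not marked in any run, so the unmarked Abca1 run does not show that it lacks one.

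Promoter windows of 300 bases, from 250 before to 50 after a start, were found for 24 of the 30 measured members. The other 6 are Fdps, Fdft1, Sqle, Stard4, Abcg1 and Npc1. All motifs were searched on both strands, and a gene with several starts counted if any window matched. A CCAAT box lay in the windows of 13 of 14 synthesis genes (92.9%), 4 of 5 SREBP control genes and 2 of 5 efflux genes, against 41.6% of 16990 genes tested on the array that have a window. Idi2 was the synthesis gene without one. The Sp1 box GGGCGG lay in 12 of the 14 (85.7%) against 49.5%. The element TCACNCCAC lay in 1 of the 14 (7.14%), Hmgcs1, against 1.43%. It was searched in exactly this form, so sterol regulatory elements that depart from it were not counted. The LXR element, taken as a direct repeat of AGGTCA with 4 bases between, lay in 0 of the 24 members. It also lay in 0 of the 16990 genes tested and in 0.0152% of all 32851 windows, so the 0 does not set the members apart. Only this exact repeat was searched, so sites that depart from it, as many LXR sites do, were not counted in any promoter. These are matches of letters and were not set against the expression values.

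The arrays were comparable as deposited, with array medians of 5.045 to 5.15 on the log2 scale. Transgenic replicate 4 stood apart, correlating on average at 0.970 with the rest of its group, where the other 3 transgenic arrays reached 0.977 to 0.979 and wild-type arrays 0.983 to 0.985. Values without it are added for some members only. It also moved others, such as Sc5d, which was at -0.0038 with it and 0.14 without it. The array did not check the genotype, since its probes are made for mouse genes: Bcl2 was at 6.11 ± 0.40 in wild type and 6.86 ± 0.34 in transgenic arrays (SD, n = 4; limma adjusted p = 0.139). Of 16 measured cDC markers 0 passed in limma, and 5 were lower and 0 higher at an unadjusted p below 0.05, against 6.60% and 6.56% of all genes. The MHC class II genes were among the brightest, with H2-Aa at -0.23, H2-Ab1 at -0.25 and H2-Eb1 at -0.38 in the difference. The 5 lower markers were H2-Ab1, H2-Eb1, Irf8 (-0.49), Zbtb46 (-0.42) and Flt3 (-0.37). All transgenic arrays lay below wild type for H2-Ab1, H2-Eb1, Irf8 and Flt3. The genes of the sorting markers CD103 and CD11b lay near the array medians, Itgae at 5.66 and 5.40 and Itgam at 5.57 and 5.58.

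Among the members, Hmgcs1 and Idi2 of synthesis fell in transgenic cDC, and the efflux pump gene Abca1 rose. The threshold was an adjusted p of 0.05 in limma over all genes, which 3 of the 30 members and 1.69% of all genes passed, 0.848% of all genes being lower and 0.839% higher. In synthesis 0 of 17 rose, 2 fell and 15 did not pass. In SREBP control 0 of 6 passed, and in the efflux group 1 of 7 rose and 6 did not pass. The median log2 difference, transgenic minus wild type, was -0.49 over the synthesis genes, 0.04 over SREBP control and 0.11 over the efflux group, against -0.0016 over all genes. Negative differences were seen in 14 of 17 synthesis genes, 2 of 6 SREBP control genes and 1 of 7 efflux genes, against 50.3% of all genes. In sorted pools, a change in the make-up of the cells and a change of RNA per cell cannot be told apart.

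**Figure D1:**
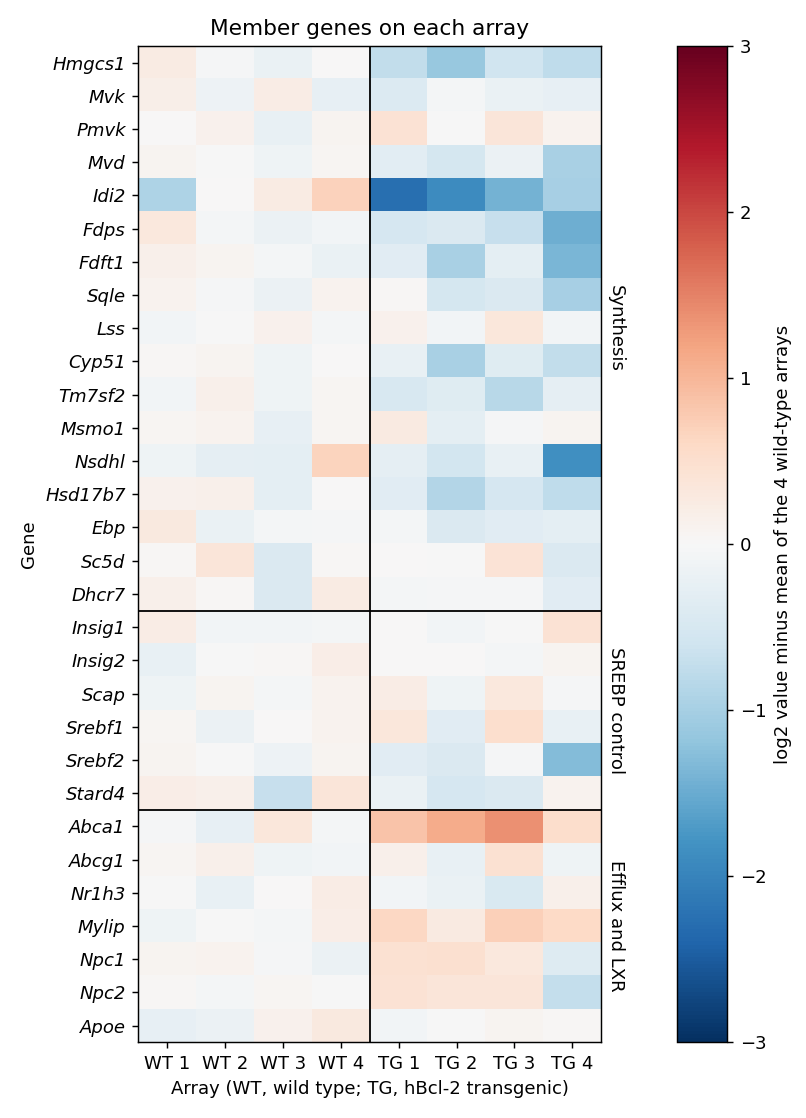
Log2 value of each of the 30 measured members (rows) on each array (columns), minus the mean of that gene on the 4 wild-type arrays; blue is lower and red higher. Most synthesis genes are blue on the transgenic arrays, with Hmgcs1 and Idi2 blue on all 4, while Abca1 and Mylip are red on all 4.

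All 4 transgenic arrays lay below all 4 wild-type arrays for 8 of the 17 synthesis genes, against 4.94% of all genes. The 8 were Hmgcs1, Mvd, Idi2, Fdps, Fdft1, Cyp51, Tm7sf2 and Hsd17b7. Without transgenic replicate 4 the count was also 8, against 7.81% of all genes. Leaving out an array cannot lower this count, so it does not show whether the 8 depend on that array. No synthesis gene had all transgenic arrays above wild type. At an unadjusted p below 0.05, 9 synthesis genes were lower in limma and 0 were higher, against 6.60% and 6.56% of all genes. On transgenic replicates 1 to 4 taken singly, 9, 12, 10 and 12 of the 17 genes lay below every wild-type array, against 25.2%, 26.6%, 25.1% and 26.2% of all genes. On the same arrays 3, 0, 3 and 0 of the 17 lay above every wild-type array, against 21.5%, 23.8%, 22.5% and 31.6% of all genes.

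Hmgcs1 encodes HMG-CoA synthase, which makes the precursor of mevalonate. It was at 10.21, 9.93, 9.76 and 9.97 on wild-type replicates 1 to 4 and at 9.22, 8.83, 9.37 and 9.20 on transgenic replicates 1 to 4. The groups did not overlap, and transgenic replicate 2 was the lowest. The difference was -0.81 (95% interval -1.13 to -0.49; limma adjusted p = 0.0247), a level 1.76-fold lower in transgenic cDC. It missed the threshold without wild-type replicates 1, 2 or 4 or transgenic replicates 1 or 2, with adjusted p of 0.0529 to 0.0775 in limma, and the difference ran from -0.88 to -0.70 as each array was left out.

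Idi2 encodes an isomerase that turns isopentenyl pyrophosphate into its reactive isomer. Its values were 7.36, 8.31, 8.54 and 8.98 in wild type and 6.05, 6.41, 6.88 and 7.29 in transgenic arrays. The groups did not overlap, but wild-type replicate 1 and transgenic replicate 4 were only just apart. Its difference was the most negative of the 30 members, -1.64 (95% interval -2.40 to -0.88; limma adjusted p = 0.0458), a level 3.12-fold lower. A further Idi2 probe set gave 6.09 ± 0.25 and 5.95 ± 0.38 (SD, n = 4), a difference of -0.14, so the probe sets of this gene disagree. Without transgenic replicate 4 the difference was -1.85. The gene lies beside its close relative Idi1 on chromosome 13, and sharing of signal between them was not tested. The mean over its probe sets was at -0.89 and did not pass (limma adjusted p = 0.0973), and the gene also missed the threshold without wild-type replicates 2, 3 or 4 or transgenic replicates 1, 2 or 3 (adjusted p of 0.0755 to 0.132 in limma).

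The other genes of the mevalonate and isoprenoid steps were lower or close to wild type, and none passed. Fdps, which makes farnesyl pyrophosphate, was at 9.81, 9.44, 9.32 and 9.42 in wild type and 9.0, 9.07, 8.80 and 8.04 in transgenic arrays. Its groups did not overlap, and transgenic replicate 4 was the lowest (difference -0.77, 95% interval -1.25 to -0.29; limma adjusted p = 0.120). Without that array the difference was -0.54 (limma adjusted p = 0.0976). Mvd, the mevalonate pyrophosphate decarboxylase, was at 8.38 ± 0.09 and 7.88 ± 0.35 (SD, n = 4), a difference of -0.50 (limma adjusted p = 0.192) that was -0.34 without transgenic replicate 4. The kinases Mvk and Pmvk, which act just before it, were at -0.22 (95% interval -0.53 to 0.08) and 0.22 (-0.08 to 0.52), on opposite sides of 0.

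Among the squalene enzymes, Fdft1, which joins isoprenoids to squalene, was at 9.90, 9.82, 9.68 and 9.54 in wild type and 9.40, 8.77, 9.43 and 8.36 in transgenic arrays. No array of either group crossed into the other, and transgenic replicates 2 and 4 were lowest (difference -0.74, 95% interval -1.24 to -0.24; limma adjusted p = 0.151). It was -0.53 without replicate 4. Sqle, the squalene epoxidase and a rate-controlling step, was at 8.59 ± 0.13 and 8.10 ± 0.43 (SD, n = 4). Its groups overlapped through transgenic replicate 1 (8.63), and the difference of -0.48 did not pass (limma adjusted p = 0.302), nor did that of -0.31 without replicate 4 (0.395). Lss, which closes squalene epoxide to lanosterol, was at 5.80 ± 0.10 and 5.88 ± 0.20 (SD, n = 4), with an interval of -0.20 to 0.35 around its difference.

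Of the enzymes after lanosterol, Hsd17b7, a keto-reductase of the demethylation complex, came nearest to the threshold. It was at 6.49, 6.53, 6.07 and 6.38 in wild type and 6.04, 5.49, 5.86 and 5.60 in transgenic arrays. They did not overlap, by a narrow margin between wild-type replicate 3 and transgenic replicate 1, and the difference was -0.62 (95% interval -0.96 to -0.28; limma adjusted p = 0.0799). With genes averaging under 6 left out it passed (limma adjusted p = 0.0486). Cyp51, the lanosterol demethylase, was at 9.36 ± 0.09 and 8.78 ± 0.34, and Tm7sf2, a sterol reductase, at 8.28 ± 0.13 and 7.80 ± 0.24 (SD, n = 4). Their differences were -0.57 and -0.49, with limma adjusted p of 0.123 and 0.126.

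Nsdhl, a dehydrogenase of the same complex, spread widely, from 8.46 to 9.43 in wild type and from 6.92 to 8.54 in transgenic arrays. Its difference of -0.72 became -0.34 without transgenic replicate 4, and neither passed (limma adjusted p = 0.421 and 0.539). The remaining 4 late enzymes lay closer to 0. Ebp, the sterol isomerase, was at -0.27 (95% interval -0.58 to 0.03) and Dhcr7, which catalyses a final reduction, at -0.11 (-0.46 to 0.23), or -0.0421 without transgenic replicate 4. Msmo1, the methyl oxidase, was at 0.01 (-0.30 to 0.32) and Sc5d, the lathosterol desaturase, at -0.0038 (-0.45 to 0.44).

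**Figure D2:**
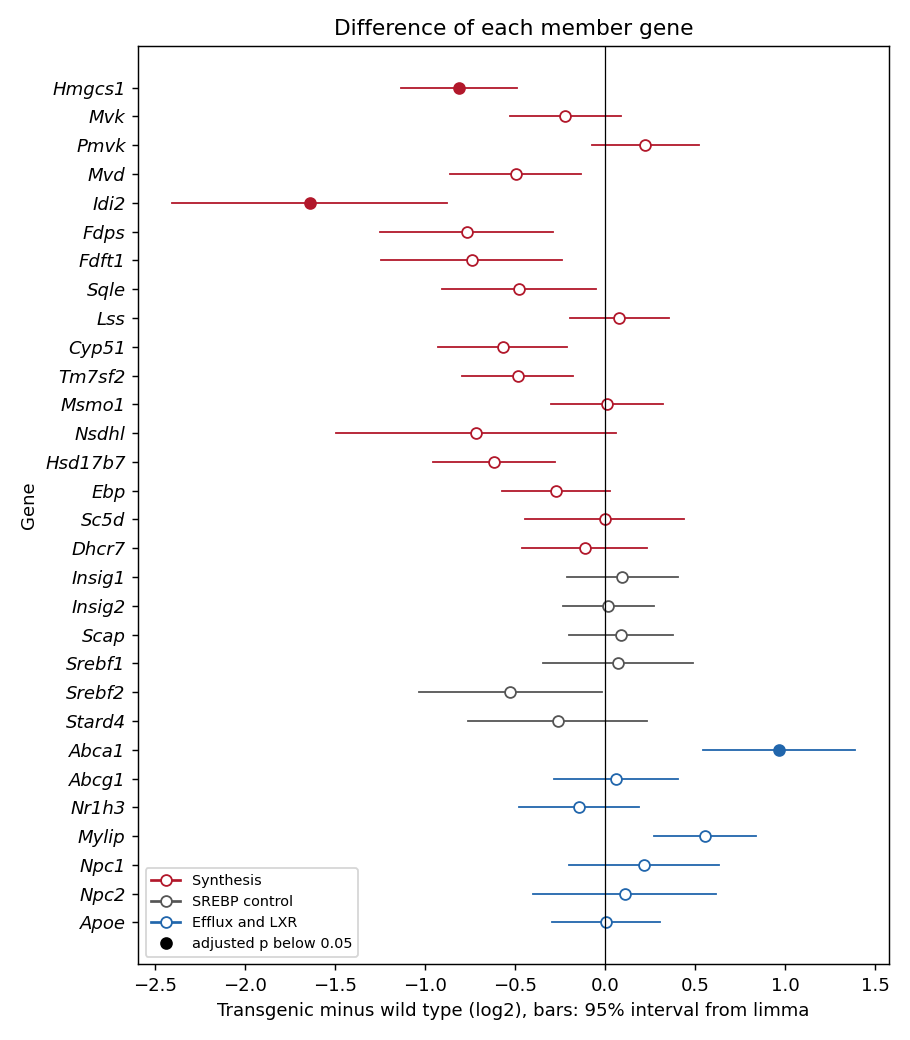
Difference of each measured member, transgenic minus wild type on the log2 scale, with its 95% interval from limma; filled circles passed the threshold over all genes. Hmgcs1 (-0.81) and Idi2 (-1.64) lie below 0 and Abca1 (0.96) above it, while the 6 SREBP control genes have open circles.

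None of the 6 SREBP control genes passed in limma, and 1 of them, Srebf2, was lower at an unadjusted p below 0.05, against 6.60% of all genes. Srebf2 encodes the SREBP form that mainly drives cholesterol synthesis. It was at 10.48, 10.37, 10.23 and 10.45 in wild type and 10.04, 9.95, 10.36 and 9.08 in transgenic arrays. Transgenic replicate 3 lay within the wild-type range and replicate 4 far below it. The difference was -0.53 (95% interval -1.04 to -0.02; limma adjusted p = 0.358) and -0.27 without replicate 4.

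Srebf1, whose product drives mainly fatty acid genes, was at 6.50 ± 0.12 and 6.58 ± 0.41 (SD, n = 4), with an interval of -0.34 to 0.49 around its difference. Scap, the escort protein, differed by 0.09 (95% interval -0.20 to 0.37). Its further probe set differed by 0.05. The retention factors Insig1 and Insig2 were at 0.09 (-0.22 to 0.40) and 0.02 (-0.24 to 0.27). Insig1 is itself a well-known SREBP target. It was at 8.79 to 9.08 in wild type and at 8.88, 8.78, 8.86 and 9.31 on transgenic replicates 1 to 4. On replicates 2 and 4 alike, 12 of 17 synthesis genes lay below every wild-type array. Insig1 was lowest of the transgenic arrays on replicate 2 and highest on replicate 4, and its relation to the synthesis genes was not tested. Stard4, a sterol carrier of the cytosol, was at 6.43 ± 0.47 and 6.16 ± 0.27 (SD, n = 4), with an interval of -0.76 to 0.23.

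In the efflux group, Abca1, which encodes the pump that loads cholesterol onto lipid-poor apolipoproteins, rose. It was at 5.75, 5.55, 6.13 and 5.73 in wild type and 6.65, 6.89, 7.16 and 6.31 in transgenic arrays. The groups did not overlap, with transgenic replicate 3 highest and replicate 4 lowest of its group. The difference was 0.96 (95% interval 0.54 to 1.39; limma adjusted p = 0.0360), a level 1.95-fold higher. The wild-type level was not far above the array medians given before. Abca1 kept its call without transgenic replicate 4 (adjusted p = 0.0187 in limma) and missed the threshold without any other array (0.0534 to 0.108) and with arrays centred on the median (0.0510).

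Mylip, also known as IDOL, is an LXR target whose product marks lipoprotein receptors for breakdown. It was at 8.84, 8.95, 8.90 and 9.15 in wild type and 9.58, 9.23, 9.68 and 9.55 in transgenic arrays. Every transgenic array lay above every wild-type array, as for Abca1, which 4.00% of all genes did. The difference of 0.55 (95% interval 0.27 to 0.84) just missed the threshold (limma adjusted p = 0.0643). It passed with genes averaging under 6 left out (0.0412), with genes dimmer than the median gene left out (0.0477), with array weights (0.0407) and without transgenic replicate 2 (0.0494).

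Other classical LXR genes did not pass. Abcg1, which passes cholesterol to high-density lipoprotein, was at 9.27 ± 0.13 and 9.32 ± 0.31 (SD, n = 4; difference 0.06, 95% interval -0.29 to 0.40). Apoe, the lipid acceptor apolipoprotein E, was at 7.53 ± 0.25 and 7.53 ± 0.07 (SD, n = 4; interval -0.30 to 0.30). Nr1h3, which encodes LXR alpha, was at 5.99 ± 0.18 and 5.84 ± 0.26 (SD, n = 4; difference -0.15, interval -0.48 to 0.19), and its difference was -0.25 without transgenic replicate 4.

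Npc1 and Npc2 encode the proteins that move cholesterol out of the lysosome, and both rested on transgenic replicate 4. Npc2 was at 10.24, 10.14, 10.25 and 10.18 in wild type and 10.64, 10.56, 10.57 and 9.49 in transgenic arrays. Replicates 1 to 3 lay above wild type and replicate 4 below it, so the difference was 0.11 with it and 0.38 without it (limma adjusted p = 0.909 and 0.0869). Npc1 behaved alike in its values, 6.53, 6.55, 6.40 and 6.28 against 6.89, 6.91, 6.77 and 6.04. Its difference was 0.21 with and 0.42 without that array (limma adjusted p = 0.715 and 0.106), and its dimmer probe set gave 0.10. The median of the efflux group moved from 0.11 to 0.38 without replicate 4.

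**Figure D3:**
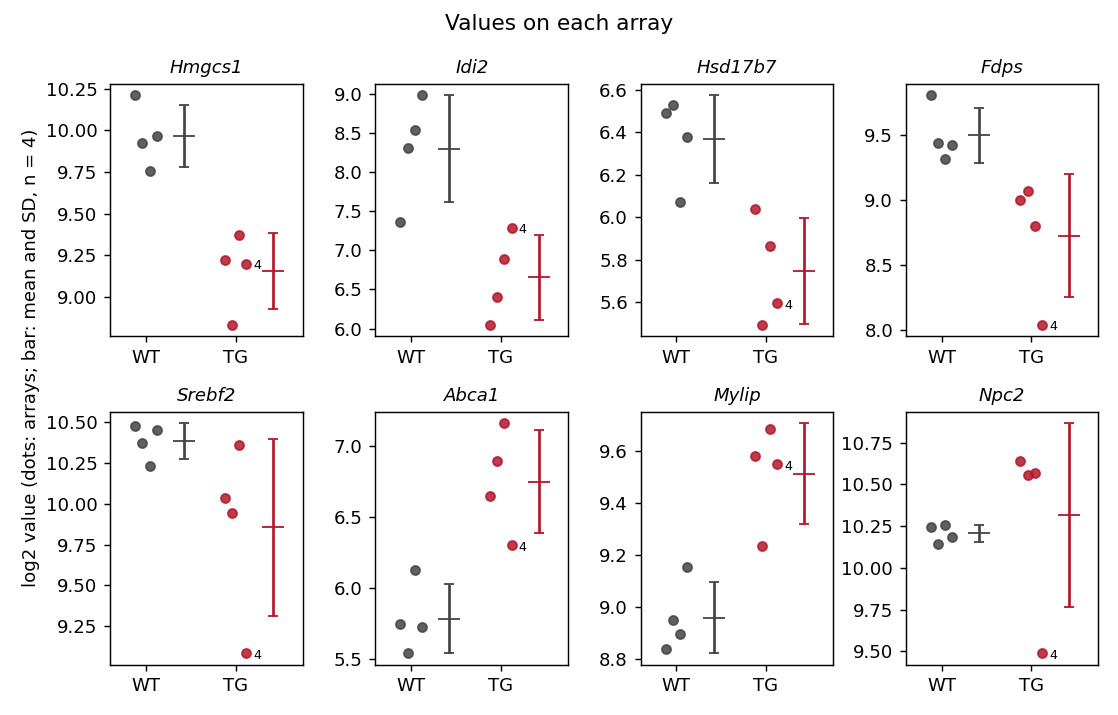
Log2 values of 8 members on each array, with the mean and SD of the 4 arrays beside the dots (WT, wild type; TG, transgenic; the number 4 marks transgenic replicate 4). Hmgcs1, Idi2, Hsd17b7, Fdps, Abca1 and Mylip have groups that do not overlap, and Srebf2 and Npc2 are lowest on transgenic replicate 4 (9.08 and 9.49).

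Averaged over its 17 genes, the synthesis level was 8.20, 8.18, 8.02 and 8.24 on the wild-type arrays and 7.86, 7.62, 7.86 and 7.49 on the transgenic ones. These means did not overlap, and transgenic replicates 2 and 4 were lowest. The efflux level was 7.67 to 7.80 in wild type and 8.07, 7.99, 8.15 and 7.75 on transgenic replicates 1 to 4, so replicate 4 lay within the wild-type range. SREBP control ranged from 7.54 to 7.82 in wild type and from 7.45 to 7.75 in transgenic arrays. The SD was larger in transgenic than in wild-type arrays for 13 of 17 synthesis genes, against 62.1% of all genes.

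Maturation genes, which cDC turn on as they migrate, were also mostly lower in transgenic cDC. Of 15, 0 rose, 5 fell and 14 differences were negative, against 0.848% of all genes that fell and 50.3% that were negative. The median of the 15 was -0.69. Their mean level was 10.65 to 10.72 in wild type and 10.43, 10.14, 10.14 and 9.93 on transgenic replicates 1 to 4. Cd40, a receptor for T cell help, was lowest (-1.37, limma adjusted p = 0.00644), and Tnfrsf4, Socs2, Cd274 and Fscn1 also fell. The migration receptor Ccr7 did not pass, at 12.99 ± 0.07 and 13.06 ± 0.08 (SD, n = 4). The part of maturation in the synthesis values was not tested.

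Macrophages express Abca1 strongly, so their markers were set beside it. Of 14 macrophage markers 1 rose and 0 fell, and 2 were higher and 0 lower at an unadjusted p below 0.05 in limma. Over all genes 0.839% rose and 0.848% fell, and 6.56% were higher and 6.60% lower at that unadjusted p. The same shares stand beside each marker list that follows. The macrophage markers had a median of 0.06 and a mean level of 5.27 to 5.66 in wild type and 5.44 to 5.66 in transgenic arrays. Adgre1, the gene of the F4/80 antigen, rose as Abca1 did, being at 6.12 ± 0.33 and 7.41 ± 0.30 (SD, n = 4; limma adjusted p = 0.0128). The lysosomal marker Cd68 was bright, at 9.85 and 10.18 (limma adjusted p = 0.353). C1qa, C1qb, C1qc, Maf, Siglec1 and Timd4 were at 5.35 to 6.44 in wild type and 4.84 to 6.55 in transgenic arrays. Of these, Siglec1 (-0.51), Timd4 (-0.48) and C1qa (-0.17) had negative differences. C1qc (0.30), C1qb (0.11) and Maf (0.09) had positive ones, and none passed. Cd163, Vsig4, Mrc1, Mertk, Fcgr1 and Cd5l lay below the array medians in both groups, between 3.21 and 4.73. Monocyte markers had a mean level of 5.32 to 5.69 in wild type and 6.06, 6.31, 5.34 and 5.65 on transgenic replicates 1 to 4, and 0 of 11 passed in limma. At an unadjusted p below 0.05, 2 were higher and 0 lower. Ly6c2 was at 5.46 to 6.83 in wild type and 8.28, 10.38, 5.81 and 7.11 on transgenic replicates 1 to 4, a difference of 1.81 (limma adjusted p = 0.346). Cd14 was at 5.25 ± 0.56 and 5.98 ± 0.32 (SD, n = 4), a difference of 0.74 (limma adjusted p = 0.226). These 2 were the highest of the list. The median of the 11 monocyte markers was 0.03, and 4 of the differences were negative, with F13a1 lowest at -0.16. Of other lineages, 1 of 10 plasmacytoid markers (Bst2, by 0.76) and 1 of 11 T cell markers (Cd4, by 1.18) rose. So did 1 of 10 NK cell markers (Klrd1, by 1.5), and no gene of these lists fell past the threshold. In the same order, the list medians were 0.34, -0.19 and 0.28, with 2, 8 and 2 differences negative. At an unadjusted p below 0.05 in limma, 1 gene of each list was higher. Spib of the plasmacytoid list (-0.64) and Cd8a of the T cell list (-0.75) were lower at that p, and 0 NK cell markers. In limma 0 of 9 B cell and 0 of 9 stromal markers passed, with 0 and 1 at an unadjusted p below 0.05. The part of these cell types in the rise of Abca1 was not tested.

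**Figure D4:**
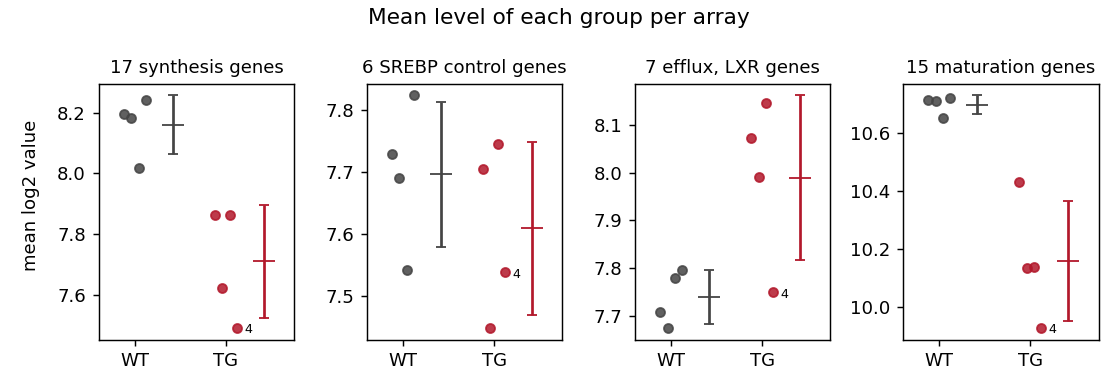
Mean log2 level per array of the 17 synthesis, 6 SREBP control, 7 efflux and 15 maturation genes, with the mean and SD of the 4 arrays (WT, wild type; TG, transgenic; 4 marks transgenic replicate 4). Synthesis (7.49 to 7.86 against 8.02 to 8.24) and maturation genes lie lower on all 4 transgenic arrays.

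Beyond the members, the clearest sterol-linked change was in Gpr183, also called EBI2, the receptor by which dendritic cells follow gradients of an oxysterol. It was at 10.70, 10.57, 10.57 and 10.75 in wild type and 9.67, 9.67, 9.46 and 9.49 in transgenic arrays. The groups lay far apart, a difference of -1.08 (SE 0.11; limma adjusted p = 0.00192). It was the 1 gene of 11 measured LXR partners and oxysterol genes that passed, against 1.69% of all genes. Cyp27a1, which makes an oxysterol that activates LXR, had the highest difference of that list at 0.58 (SE 0.14; limma adjusted p = 0.0803), with all transgenic arrays above wild type. The enzyme that starts the synthesis of the Gpr183 ligand, Ch25h, was dim at 4.23 and 4.05.

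Of 14 genes of sterol uptake and transport, 1 rose, 2 fell and 11 did not pass, where 0.839% of all genes rose and 0.848% fell. Gramd1b, which carries cholesterol from the plasma membrane to the endoplasmic reticulum, fell, with 8.83 ± 0.08 in wild type and 8.13 ± 0.16 in transgenic arrays (SD, n = 4; limma adjusted p = 0.0181). Lima1, an actin-binding protein also linked to cholesterol absorption, also fell, being at 9.43 ± 0.09 and 8.85 ± 0.19 (SD, n = 4; limma adjusted p = 0.0439). Stard5, a sterol-binding relative of Stard4, rose, being at 5.78 ± 0.11 and 6.54 ± 0.18 (SD, n = 4; limma adjusted p = 0.0156). Leaving out single arrays ended each of these calls: Gramd1b without any wild-type array (adjusted p up to 0.0615 in limma), Stard5 without wild-type replicates 1, 3 or 4 (up to 0.0539), and Lima1 without any of the 8 (0.0600 to 0.129).

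**Figure D5:**
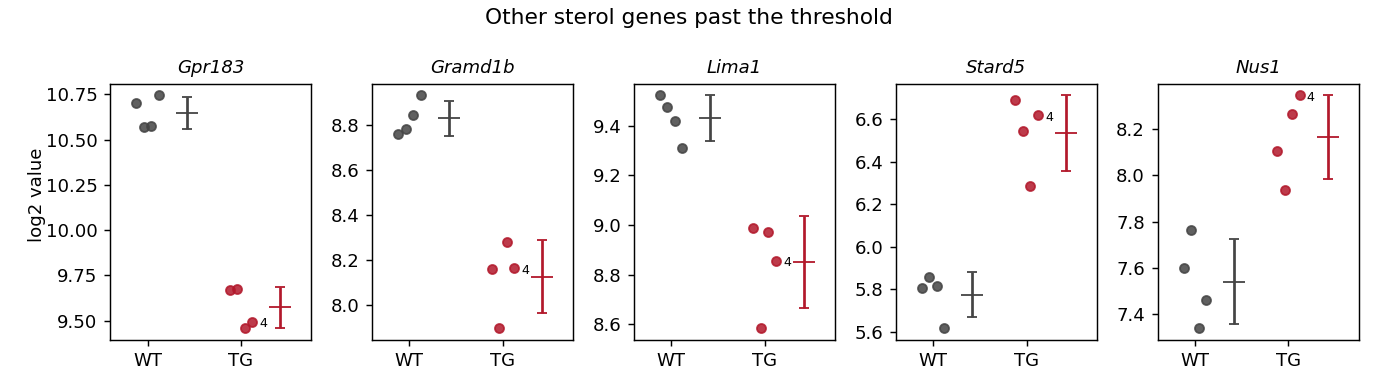
Log2 values on each array of the 5 sterol-linked genes outside the members that passed the threshold, with the mean and SD of the 4 arrays (WT, wild type; TG, transgenic; 4 marks transgenic replicate 4). Gpr183, Gramd1b and Lima1 are lower and Stard5 and Nus1 higher on all 4 transgenic arrays.

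Of 8 further genes of the sterol and isoprenoid pathway, 1 rose and 7 did not pass, against 0.839% of all genes that rose. The median of the 8 was 0.32, on the other side of 0 from the synthesis members. Nus1, a subunit of the enzyme that builds dolichol from isoprenoids, rose, being at 7.54 ± 0.18 and 8.16 ± 0.18 (SD, n = 4; limma adjusted p = 0.0492) but missed the threshold without any of the 8 arrays (0.0555 to 0.142). Its partner Dhdds had the lowest difference (-0.41, SE 0.16; limma adjusted p = 0.306). Lbr, a sterol reductase of the nuclear envelope, had the highest (0.78, SE 0.29; limma adjusted p = 0.257), with 5.90 on transgenic replicate 4 against 6.50 to 7.44 on the other 3, and 1.07 without that array (limma adjusted p = 0.0532). Of 14 further LXR targets 0 passed in limma and 1 was higher at an unadjusted p below 0.05, against 6.56% of all genes. It was Smpdl3a, a phosphodiesterase of the sphingomyelinase family, at 0.39 (SE 0.11; limma adjusted p = 0.127). Abcd2, a fatty acid transporter of peroxisomes, was the lowest of that list (-0.30, SE 0.18; limma adjusted p = 0.546) and dim.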

How the data were processed

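The deposited log2 values per probe set were used as given. The submitters' processing notes name RMA and Partek for them. Versions, filters and build were not given in the sources used here. Per the labels' protocols, 2.5 ng of RNA was amplified and labelled with biotin. RMA makes array distributions alike, so a shift of all genes would not be seen. Of 34390 probe sets, 23521 name 1 gene, 1814 several and 9055 none in the platform's annotation, and only the first kind was tested, 1 per gene (22180 genes). Transgenic was compared with wild type with limma 3.58.1 (lmFit, then eBayes; R 4.3.3), tested on simulated data, without a filter on signal, and p-values were adjusted by Benjamini-Hochberg over every gene tested. Errors are SDs over arrays or moderated SEs. Arrays have no read depth, and their number limits the precision.

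The members and lists were chosen with earlier results of these data known, so lists are described by counts and medians only. All members were named, and from each pathway list and the maturation list up to 6 genes past the threshold and those with the highest and lowest difference. Bcl2, Ch25h and the genes named from cell type marker lists fall outside that rule and were chosen after their values were seen. Alternatives were variance moderation, filters on dim genes, normalization, probe set rules, array weights, a replicate block, the threshold and leaving out arrays (limma with statmod 1.5.0). Promoters are from RefSeq, GRCm38.p6. Figures were drawn with matplotlib 3.10.9.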

Additional observations from a re-analysis of the deposited data

Results flagged for a closer look

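In 5 cases 1 array lay far from the other 3 of its group by the gap between them relative to the group's range (above Dixon's 95% critical value for 4 arrays). Chance flags about 1 group in 20, and 66 groups were looked at. Transgenic replicate 4 was low for Npc2 (9.49, nearest other array 10.56), Npc1 (6.04, nearest 6.77) and Dhcr7 (5.89, nearest 6.16). Wild-type replicate 1 was high for Insig1 (9.08, nearest 8.80), and wild-type replicate 3 was low for Msmo1 (7.73, nearest 8.02).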

How the results depend on the processing

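Over the alternatives tried, the synthesis median ran from -0.56 to -0.34 and kept its sign. For all genes, transgenic minus wild type, the 374 past the threshold became 35 without moderation, 187 with the replicate number as a block, 747 at a threshold of 0.10 and 106 to 379 when each array was left out, and the 3 members past it became 0, 2, 5 and 0 to 3. Without moderation limma's adjusted p of Hmgcs1, Idi2 and Abca1 was 0.120, 0.226 and 0.182. Idi2 also missed the threshold after quantile normalization (0.0537) and median centring (0.0517). The member count was also 5 with genes averaging under 6 left out and 1 with arrays centred on the median. The efflux median of 0.11 became 0.29 with array weights and ran from 0.022 to 0.38 without single arrays. The SREBP control median ran from -0.0296 to 0.085 without single arrays. The count of 8 synthesis genes with groups apart ran from 8 to 10 without single arrays, a check added after seeing the data. Leaving out an array cannot lower such a count, so this range does not show that the count is stable.

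Same-numbered arrays of the groups did not deviate together (correlations of -0.03 to 0.08), and 1 of 4 wild-type arrays correlated best with its own number. With the replicate block Hmgcs1 did not pass (limma adjusted p = 0.0656), while Idi2 and Abca1 did (0.0115 and 0.0418), and Gramd1b (0.0532), Stard5 (0.0576), Lima1 (0.0964), Nus1 (0.136) and Fscn1 (0.063) did not.

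Gpr183 passed in all 20 alternatives (differences of -1.11 to -1.01, limma adjusted p up to 0.0221). Members near 0 changed sign as single arrays were left out: Lss (-0.0085 to 0.13), Msmo1 (-0.0777 to 0.11), Sc5d (-0.15 to 0.14), Insig1 (-0.0229 to 0.17), Insig2 (-0.0597 to 0.0799), Srebf1 (-0.0726 to 0.20), Abcg1 (-0.0727 to 0.15), Npc2 (-0.0004 to 0.38) and Apoe (-0.0747 to 0.10). Quantile normalization again put Sc5d at 0.0258 and Apoe at -0.0149, and array weights put Sc5d at 0.0622. The causes of these changes were not tested.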

Other observations

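Among fatty acid genes that SREBP-1 drives, 16 were measured. Of these, 0 passed in limma, and the median difference was -0.02. At an unadjusted p below 0.05 in limma, 3 were lower and 3 higher, against 6.60% and 6.56% of all genes. Scd1, the desaturase that makes oleic acid, had the highest difference (0.80, SE 0.23; limma adjusted p = 0.123), and without transgenic replicate 4 it was at 1.00 and passed (0.0342). Fads2, a desaturase of polyunsaturated fatty acids, had the lowest (-0.69, SE 0.25; limma adjusted p = 0.246). The 14 genes of SREBP transport and processing had a median of 0.03, 0 passed in limma and 0 had an unadjusted p below 0.05. Their highest difference was that of Tmem41a (0.29, SE 0.15) and their lowest that of Sec24c, a subunit of the vesicle coat that carries SCAP (-0.70, SE 0.32), which was -0.31 without transgenic replicate 4.

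Of 5 genes of sterol esters and storage 0 passed in limma and 1 was higher at an unadjusted p below 0.05, against 6.56% of all genes. Nceh1, which encodes a cholesterol ester hydrolase, was at 4.34, 5.89, 4.94 and 6.22 in wild type and 6.49, 6.98, 6.31 and 6.82 in transgenic arrays. The groups did not overlap, although the wild-type arrays spread widely, and the difference was 1.30 (SE 0.36; limma adjusted p = 0.115). With the mean over its probe sets it was at 1.06 and passed (0.0192). Tspo, the translocator protein of mitochondria, was the lowest of the list (-0.45, SE 0.29; limma adjusted p = 0.588).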
